A study of Homo sapiens with 8 samples.

Results

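The genes described here encode the protein import machinery of mitochondria and 2 organisers of the inner membrane's folds, the cristae. They were chosen by name. The rule took every row whose symbol starts with TIMM or TOMM followed by a digit, and 13 further symbols, which are SAMM50, MTX1, MTX2, MTX3, IMMT, CHCHD3, CHCHD4, GFER, PAM16, GRPEL1, GRPEL2, PMPCA and PMPCB. After 3 pseudogene rows were set aside this gave 33 members of 15982 gene symbols, and all 33 passed the filter on low counts. PAM16 of the import motor, TOMM6 of the outer membrane gate, and TIMM22 and TIMM29 of the carrier translocase were not analysed here.

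The 8 sequenced cultures were of 143BTK-, a line of human osteosarcoma cells without thymidine kinase activity. In 4 cultures the cells had received a mimic of hsa-miR-101-3p (miR-101) and in 4 a scrambled mimic (negative control), each at 80 pmol per 10 cm dish at 0 h and again at 48 h, with harvest at 120 h. All 8 cultures grew in galactose (10 mM) without glucose, with uridine and 5% dialysed serum, a medium in which cells rely on mitochondrial respiration for ATP. The labels describe 4 independent transfections numbered 1 to 4, all in 1 cell line, and a transfected mimic reaches levels that need not match those of the cell's own microRNA.

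Total counts ran from 17603054 to 20160267 per library. Levels below are CPM, read counts scaled to a common library size by the trimmed mean of M-values (TMM), and "called" means an adjusted p under 0.05 in edgeR's quasi-likelihood test across the 15905 genes tested. EZH2, a described miR-101 target, had a mean CPM of 28.1 ± 2.09 with miR-101, against 45.7 ± 5.12 for the negative control (SD of 4 libraries), without overlap. Of 8 mesenchymal and bone markers 6 were in the table, among them VIM (476 to 806 CPM with miR-101, 526 to 899.5 CPM in the control) and RUNX2 (20.5 to 31.4 CPM with miR-101, 9.23 to 18.8 CPM in the control). COL1A2 and ALPL were not analysed here. The epithelial keratin KRT8 stood between 87.0 and 143 CPM with miR-101 and between 49.7 and 75.2 CPM in control libraries, and the part of such shifts in the results below was not tested. CD14 and PECAM1, of blood and endothelium, reached at most 3.96 CPM, and mRNA of the thymidine kinase TK1 was present at 12.4 to 18.1 CPM.

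Nearly all mitochondrial proteins are made in the cytosol as precursors and must cross one or both membranes. The TOM complex is the common gate of the outer membrane, the SAM complex inserts barrel proteins behind it, and small TIM chaperones and a disulfide relay work in the space between the membranes. The TIM23 complex then draws precursors with a cleavable leader into or across the inner membrane, an ATP-driven motor around the chaperone HSPA9 pulls them into the matrix, and a peptidase removes the leader. IMMT (Mic60) and CHCHD3 (Mic19) belong to MICOS, which holds crista junctions in shape.

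A microRNA lowers mRNAs mainly by pairing its seed, bases 2 to 8, with matches in the 3′ UTR. The mature hsa-miR-101-3p (RefSeq, GRCh38.p14, chr9:4850345-4850365, plus strand, the copy at MIR101-2) is shown first with its seed in capitals. Below it are 8mer and 7mer-m8 matches of members, as DNA 5′ to 3′ with the match in capitals. These 2 classes had the lower median fold changes over all genes. The listed matches come from the longest annotated 3′ UTR, or from another one where the longest held no match.
hsa-miR-101-3p: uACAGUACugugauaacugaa
TIMM17A, upstream match: aaaataaagtatGTACTGTtttgaatg
TIMM17A, downstream match: aaagccatgtggGTACTGTAaacacacg
GRPEL2: ttaggaaaattgGTACTGTgataaatt
CHCHD4: gtatgtgaagggGTACTGTActttattc
MTX3: gaaaaacacatcGTACTGTAtacaaaga
TOMM5: gatgcaatatggGTACTGTAtttgaagg
TOMM22: acaatctaggtgGTACTGTtcccattt
IMMT, shorter 3′ UTR: gcaggtttacaaGTACTGTtctaaatg
TIMM21, not its longest 3′ UTR: tctctttgctggGTACTGTgtctgctt
The 8mer class is GTACTGTA, 7mer-m8 is GTACTGT without the last A, and 7mer-A1 is TACTGTA. TIMM17A holds 2 matches in its longest annotated 3′ UTR of 1107 bases (GENCODE 29, GRCh38), a 7mer-m8 at chr1:201970334-201970340 and an 8mer at chr1:201970533-201970540, both on the plus strand. The matches of GRPEL2 (chr5:149351537-149351543) and TOMM22 (chr22:38685135-38685141) are 7mer-m8 on the plus strand, and those of CHCHD4 (chr3:14112378-14112385), MTX3 (chr5:79983429-79983436) and TOMM5 (chr9:37583178-37583185) are 8mers on the minus strand. MTX3 holds a second match, a 7mer-A1, and TIMM8A, TIMM9 and GRPEL1 hold matches of that class alone. IMMT (chr2:86144148-86144154, minus strand) and TIMM21 (chr18:74156874-74156880, plus strand) have a 7mer-m8, and PMPCB a 7mer-A1, only in an annotated 3′ UTR that is not their longest. With any annotated 3′ UTR counted, 12 of 33 members (36.4%) held a match, against 27.3% of all genes with a 3′ UTR.

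With miR-101, 3 of the 33 members were called. TIMM17A, a channel subunit of TIM23, and IMMT, the core of MICOS, fell, and TIMM10B, a small TIM protein of the carrier translocase, rose. Over all genes 6.62% were called, 3.3% higher and 3.32% lower, so a count of 3 in 33 is close to the background. At an unadjusted p under 0.05 there were 7 members, 3 higher (TIMM10B, TOMM20 and TOMM7) and 4 lower (TIMM17A, IMMT, GRPEL2 and TIMM23), against 22.3% of all genes. The groups did not overlap for 6 members, 3 higher and 3 lower, against 15.1% of all genes. The median log2 fold change, miR-101 over negative control, was -0.05 over the members and -0.01 over all genes, and the median of its size without sign was 0.147 for members and 0.204 for all genes. No member changed by 1 or more on the log2 scale and 22 stayed within 0.25 of zero. With the replicate number as a block 5 members were called, TOMM20 higher and GRPEL2 lower in addition, beside 10.5% of all genes. DESeq2 and limma-voom called the same number of members, 3, beside 10.9% and 6.66% of all genes, and with replicates 1 and 2 of a group summed into 1 sample no member was called, beside 1.09%. In bulk RNA, less of an mRNA in each cell and fewer cells that carry it cannot be told apart.

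**Figure D1:**
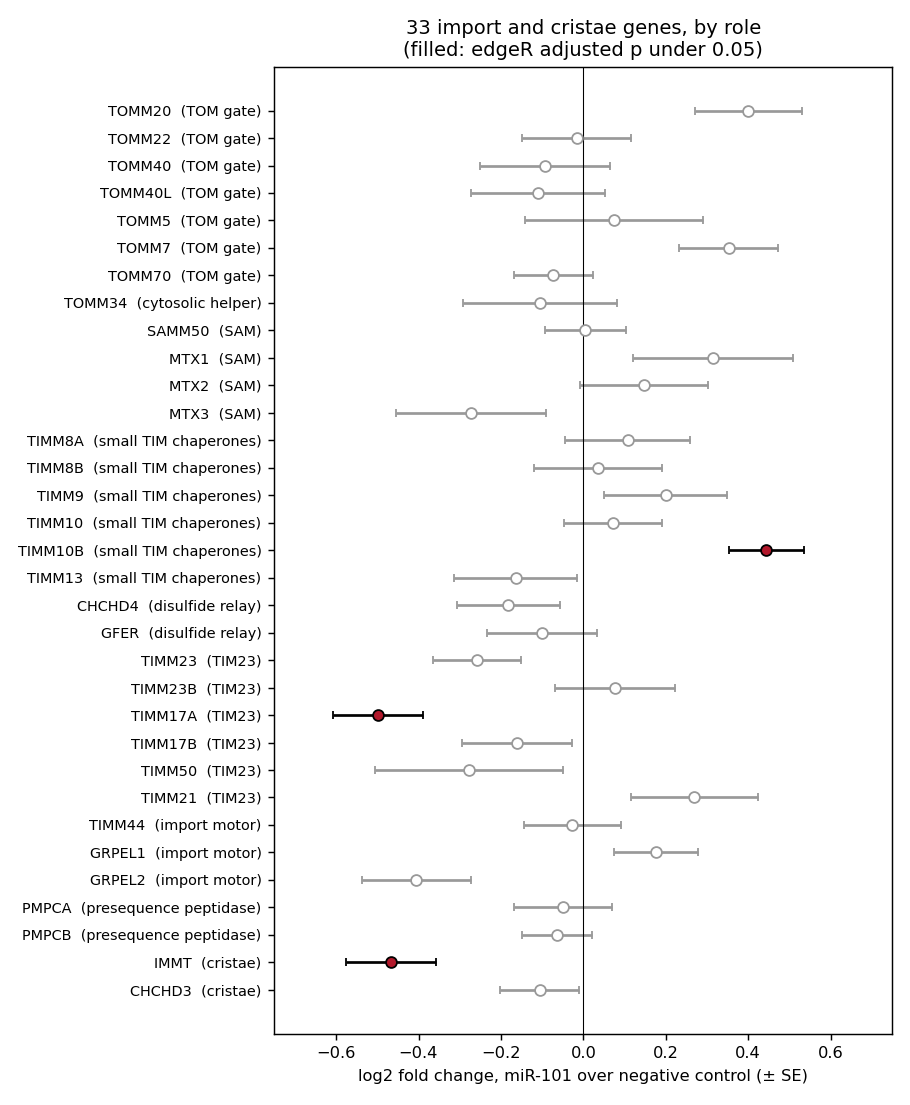
Log2 fold change, miR-101 over negative control, with its standard error for each of the 33 members, grouped by role from the outer membrane (top) to the cristae (bottom). Filled points mark the 3 called members, TIMM10B on the higher side and TIMM17A and IMMT on the lower side.

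The TOM gate had no called member among 7, with fold changes from -0.11 (TOMM40L, a relative of the channel protein) to 0.40 (TOMM20) on the log2 scale. TOMM20, the receptor that first binds leader sequences, stood at 287, 277, 312 and 295 CPM in miR-101 replicates 1 to 4 and at 222, 204, 278 and 182 CPM in control replicates 1 to 4. Every miR-101 library was above its same-numbered control, but control replicate 3 lay within the miR-101 range. The log2 fold change was 0.40 ± 0.13 (SE), with an edgeR adjusted p of 0.0963. It was 0.043 with the replicate block, 0.34 with replicates 1 and 2 summed, 0.0184 without control replicate 3, the library that overlapped, and 0.129 to 0.228 in the other 7 fits that left out 1 library. TOMM7, a small subunit of the gate, stood at 251, 243, 259 and 320.0 CPM with miR-101 and at 196, 191, 239 and 214 CPM in the control, so the groups did not overlap although miR-101 replicate 2 and control replicate 3 lay close. Its log2 fold change was 0.35 ± 0.12 (edgeR adjusted p = 0.11, and 0.0651 with the block). In all, 18 of the 33 members share exon bases with another annotated gene, and the sources used here do not say whether counting used the strand. This limit holds also where it is not repeated, as for TIMM9, TIMM17B and GRPEL2. Reads of TOMM20 can be shared with pseudogenes, of which the row TOMM20P4 had a mean CPM of 8.03 ± 1.21 with miR-101, against 6.79 ± 1.18 in control libraries.

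Other subunits of the gate stayed near zero. TOMM22, the central receptor, stood at 99.0, 114, 116 and 146 CPM with miR-101 and at 116, 104, 134 and 127 CPM in the control, which overlap broadly (-0.02 ± 0.133, edgeR adjusted p = 0.961), and the sign of its fold change turned in 6 of the alternative fits. TOMM5, another small subunit, stood at 8.32, 7.20, 7.10 and 12.9 CPM with miR-101 and at 6.59, 7.94, 9.56 and 9.65 CPM in the control (0.07 ± 0.216, edgeR adjusted p = 0.881). Its value in miR-101 replicate 4 was above all others, and the fold change was -0.17 without that library. TOMM40, the channel, and TOMM70, the receptor for carrier proteins, had log2 fold changes of -0.09 ± 0.157 (0.08 without control replicate 4) and -0.07 ± 0.0961. TOMM34, a cytosolic helper of import, stood at 44.5, 44.8, 48.1 and 46.1 CPM with miR-101 and at 41.6, 37.7, 44.5 and 73.4 CPM in the control. Control replicate 4 alone was high, and the log2 fold change was -0.10 ± 0.187 with it and 0.15 without it (edgeR adjusted p = 0.791 and 0.351).

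In the SAM complex none of 4 members was called. SAMM50, the barrel insertase, had a mean CPM of 38.5 ± 2.26 with miR-101, against 38.4 ± 2.48 in control libraries (0.00 ± 0.0979). MTX1, a metaxin partner of SAMM50, stood at 4.45, 5.35, 4.46 and 6.07 CPM with miR-101 and at 4.56, 3.97, 2.92 and 4.83 CPM in the control. This was the lowest member per length, with groups that overlap (0.31 ± 0.194, edgeR adjusted p = 0.374). The exons of MTX1 share 568 bases with an antisense gene and 146 with THBS3, both on the other strand, so the value is uncertain. MTX3, a further metaxin, stood at 47.4, 42.2, 53.9 and 65.0 CPM with miR-101 and at 51.4, 49.0, 75.04 and 76.7 CPM in the control. It was lower in 4 of 4 same-numbered pairs, but miR-101 replicates 3 and 4 exceeded control replicates 1 and 2 (-0.27 ± 0.182, edgeR adjusted p = 0.411). MTX2 had a log2 fold change of 0.15 ± 0.155.

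Among the 6 small TIM chaperones, which escort hydrophobic precursors between the membranes, TIMM10B was called and 5 of 6 fold changes were positive. TIMM10B (chr11:6481447-6484679, plus strand) stood at 77.9, 81.5, 76.5 and 87.7 CPM with miR-101 and at 60.9, 58.5, 61.9 and 56.6 CPM in the control. The lowest miR-101 library lay above the highest control library by more than the range of the controls. It rose by 0.44 ± 0.0909 on the log2 scale (edgeR adjusted p = 0.0165). Fitted alone, replicates 1 and 2 gave 0.41, and replicates 3 and 4 gave 0.47 with an edgeR adjusted p of 0.653. The call was lost without miR-101 replicate 2 or control replicate 2 (edgeR adjusted p = 0.0616 and 0.0619). Its exons share 33 bases with ARFIP2 on the other strand, which had a log2 fold change of 0.12 ± 0.109, and 412 bases with a gene model on its own strand, so the value is uncertain.

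**Figure D2:**
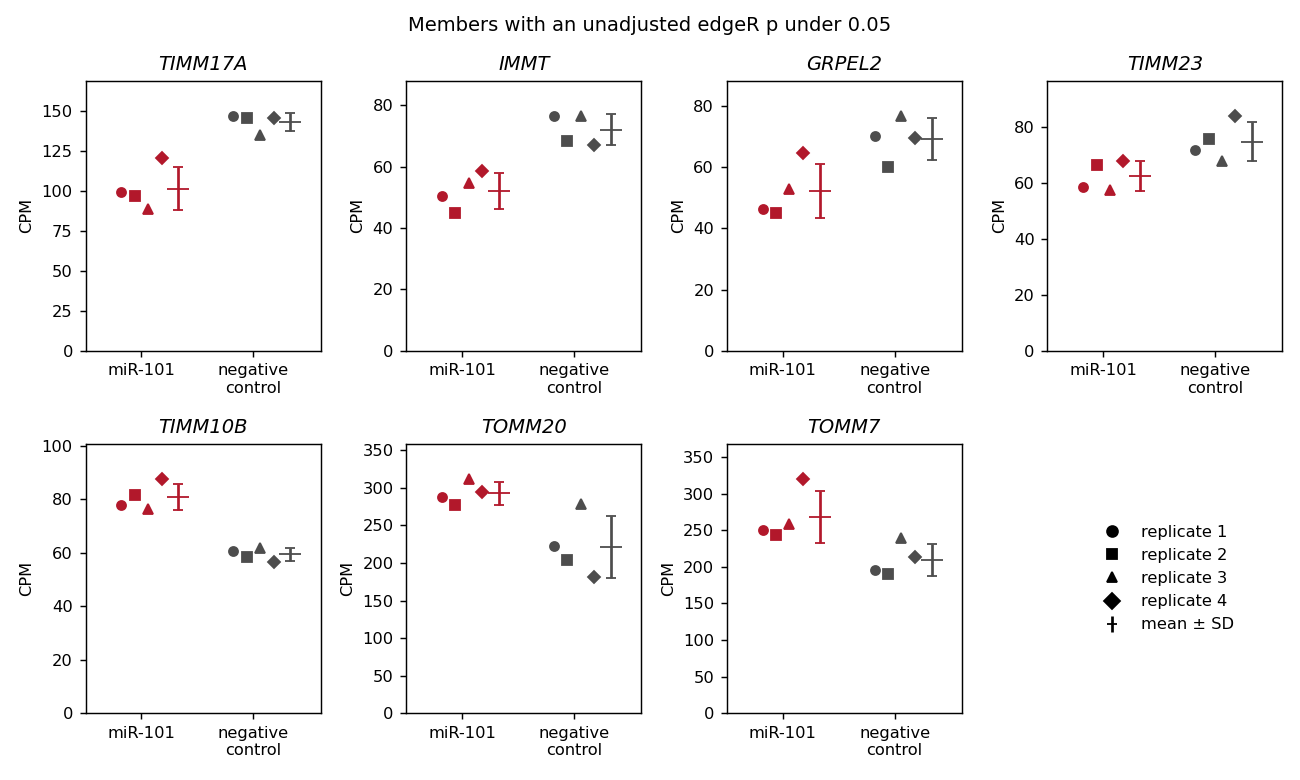
CPM in each library for the 7 members with an unadjusted edgeR p under 0.05, miR-101 at the left and negative control at the right of each panel. Symbols mark the replicate number and bars the mean ± SD (n = 4). TIMM17A, IMMT, TIMM10B and TOMM7 show no overlap between groups, while GRPEL2, TIMM23 and TOMM20 do.

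TIMM10, the partner of TIMM9 in the main chaperone ring, stood at 26.3, 27.4, 25.1 and 32.3 CPM with miR-101 and at 27.1, 23.6, 25.5 and 29.4 CPM in the control (0.07 ± 0.119, edgeR adjusted p = 0.769), with overlap. TIMM9 stood at 28.1, 24.1, 27.1 and 32.6 CPM with miR-101 and at 22.9, 21.5, 31.3 and 21.8 CPM in the control, where replicate 3 alone was high (0.20 ± 0.149). TIMM8A, mutated in a deafness-dystonia syndrome, stood at 26.3, 26.5, 26.4 and 39.2 CPM with miR-101, replicate 4 far above the other 3, and at 26.6, 24.2, 27.9 and 31.0 CPM in the control (0.11 ± 0.152, and -0.06 without miR-101 replicate 4). TIMM8B and TIMM13 had log2 fold changes of 0.04 ± 0.156 and -0.16 ± 0.149. TIMM8B shares exon bases with NKAPD1 and with SDHD, a complex II subunit, both on the other strand. TIMM13 shares 257 exon bases with LMNB2 on its own strand, which had a mean CPM of 170 with miR-101 and 175 in control libraries. Both values are uncertain.

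The disulfide relay, which traps small cysteine-rich proteins between the membranes, held 2 members without a call. CHCHD4 (MIA40), its oxidoreductase, stood at 24.6, 24.6, 22.9 and 26.1 CPM with miR-101 and at 27.1, 26.2, 24.0 and 34.1 CPM in the control. It was lower in 4 of 4 same-numbered pairs by small amounts, and the ranges overlap (-0.18 ± 0.126, edgeR adjusted p = 0.43). GFER (ALR), which reoxidises CHCHD4, had a log2 fold change of -0.10 ± 0.133.

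Of the 6 members of the TIM23 translocase, TIMM17A was the 1 called, and 4 of 6 fold changes were negative. TIMM17A (chr1:201955491-201970661, plus strand) lines the translocation path, and its protein is known to be short-lived under stress. It stood at 99.2, 96.8, 88.8 and 120.4 CPM in miR-101 replicates 1 to 4 and at 147, 145, 135 and 146 CPM in control replicates 1 to 4. The highest miR-101 library, replicate 4, was still below the lowest control, replicate 3. TIMM17A fell to a mean CPM of 101.3 ± 13.5 with miR-101, against 143 ± 5.69 in control libraries (SD, n = 4), and the log2 fold change was -0.50 ± 0.109 (edgeR adjusted p = 0.0222). Replicates 1 and 2 alone gave -0.58, and replicates 3 and 4 alone gave -0.42 with an edgeR adjusted p of 0.761. Its call was lost when miR-101 replicate 1, 2 or 3 was left out, or control replicate 1 or 2, with adjusted p values of at most 0.0842 from edgeR. No other gene in the annotation shares exon bases with it.

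TIMM17B, the X-linked paralogue of TIMM17A, stood at 35.8, 36.3, 26.8 and 28.6 CPM with miR-101 and at 39.0, 36.5, 36.7 and 30.5 CPM in the control. The groups overlap although each pair was lower (-0.16 ± 0.133, edgeR adjusted p = 0.516). TIMM23, the second core protein of the translocase, stood at 58.4, 66.1, 57.2 and 67.8 CPM with miR-101 and at 71.7, 75.5, 67.6 and 83.7 CPM in the control. All 4 pairs were lower and the groups met only where miR-101 replicate 4 passed control replicate 3 (-0.26 ± 0.106, unadjusted p = 0.033, edgeR adjusted p = 0.178). TIMM23B, a near-identical copy on the same chromosome, stood at 9.98, 11.5, 9.60 and 10.5 CPM with miR-101 and at 9.34, 9.98, 8.19 and 11.9 CPM in the control (0.08 ± 0.146), and reads of this pair may be divided wrongly between the copies. TIMM50, the receptor of the complex, had a mean CPM of 31.1 ± 1.63 with miR-101, against 37.7 ± 15.7 in control libraries, where replicate 4 stood at 60.7 CPM and the other controls at 26.6 to 34.7 CPM (-0.28 ± 0.227, and 0.05 without control replicate 4). TIMM21, which links the gate to TIM23, had a log2 fold change of 0.27 ± 0.154.

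In the import motor none of 3 members was called, and its 2 nucleotide exchange factors lay on opposite sides of zero. GRPEL2 (chr5:149345430-149354583, plus strand) and GRPEL1 (chr4:7058906-7068197, minus strand) both release ADP from the motor chaperone HSPA9. GRPEL2 stood at 46.2, 45.0, 53.0 and 64.6 CPM with miR-101 and at 70.2, 60.1, 76.7 and 69.6 CPM in the control. All 4 pairs were lower, with an overlap because miR-101 replicate 4 exceeded control replicate 2. Its log2 fold change was -0.41 ± 0.133 (edgeR adjusted p = 0.1), and it was called with the replicate block (0.0451) and without miR-101 replicate 4 (0.0335), but not in the other 7 fits that left out 1 library (0.11 to 0.256) or with replicates 1 and 2 summed (0.34). GRPEL1 stood at 58.2, 59.4, 59.8 and 72.8 CPM with miR-101 and at 55.6, 53.8, 53.9 and 58.1 CPM in the control, without overlap but with miR-101 replicate 1 and control replicate 4 almost level (0.18 ± 0.102, edgeR adjusted p = 0.344). TIMM44, which anchors the motor, had a log2 fold change of -0.03 ± 0.118. GRPEL2P2, a pseudogene row that can share reads with GRPEL2, had a mean CPM of 1.145 ± 0.342 with miR-101, against 1.81 ± 0.23 in control libraries. Its log2 fold change was -0.65 ± 0.243 (edgeR adjusted p = 0.143).

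The presequence peptidase, which cuts off the leader, had 2 members with values near zero. Its catalytic subunit PMPCB stood at 63.6, 64.8, 64.6 and 61.9 CPM with miR-101 and at 65.8, 65.3, 66.0 and 69.3 CPM in the control, narrowly without overlap (-0.06 ± 0.0839, edgeR adjusted p = 0.698). Its exons share 628 bases with DNAJC2 on the other strand, which had a log2 fold change of 0.35 ± 0.111, so the value is uncertain. PMPCA, the subunit that recognises substrates, had a log2 fold change of -0.05 ± 0.119.

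Of the cristae organisers, IMMT fell and CHCHD3 was not called. IMMT (chr2:86143932-86195770, minus strand) stood at 50.4, 45.0, 54.7 and 58.7 CPM with miR-101 and at 76.5, 68.3, 76.5 and 67.2 CPM in the control. The groups did not overlap, miR-101 replicate 4 and control replicate 4 being nearest to each other. IMMT fell to a mean CPM of 52.2 ± 5.85 with miR-101, against 72.1 ± 5.06 in control libraries (SD, n = 4), and the log2 fold change was -0.47 ± 0.109 (edgeR adjusted p = 0.0293). Replicates 1 and 2 alone gave -0.61, and replicates 3 and 4 alone gave -0.34 with an edgeR adjusted p of 0.792. Leaving out miR-101 replicate 1, 2 or 3, or control replicate 1 or 2, ended the call, with adjusted p values of at most 0.102 from edgeR. An annotated antisense gene shares 181 exon bases with IMMT, so the value is uncertain in this respect. CHCHD3, which binds IMMT inside the intermembrane space, stood at 169, 181, 168 and 171 CPM with miR-101 and at 203, 193, 180.2 and 165 CPM in the control, with overlap through control replicates 3 and 4 (-0.11 ± 0.0958, edgeR adjusted p = 0.559). Reads of CHCHD3 can be shared with the pseudogene row CHCHD3P3, which had a mean CPM of 39.9 ± 2.90 with miR-101, against 41.8 ± 4.49 in control libraries.

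Whether partner genes differed from each other was asked with the ratio of their counts within a library, which needs no normalisation. Of 10 pairs, 4 had ratios that did not overlap between groups. Each was at 0.0286, the smallest p that a two-sided exact permutation test of 4 against 4 can give (0.0714 adjusted over the 10 pairs). No pair thus reached an adjusted p under 0.05. Each of the 4 pairs holds a member with an unadjusted edgeR p under 0.05 above, so its ratio is no separate support. The log2 ratio of GRPEL1 to GRPEL2 was 0.33, 0.40, 0.17 and 0.17 with miR-101 and -0.34, -0.16, -0.51 and -0.26 in the control, so GRPEL1 had the higher count in all 4 miR-101 libraries and GRPEL2 in all 4 controls. The mean difference of 0.59 was the widest of these 4 pairs. The log2 ratio of IMMT to CHCHD3 was -1.74, -2.004, -1.62 and -1.55 with miR-101 and -1.41, -1.4997, -1.24 and -1.30 in the control, a difference of -0.37. This pair's groups were separated by only a small gap between miR-101 replicate 4 and control replicate 2, and the exact p was 0.0571 without miR-101 replicate 2 or without any 1 of the controls. TIMM10 to TIMM10B differed by -0.37 and TIMM23 to TIMM23B by -0.35, the second uncertain because of shared reads.

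For TIMM17A and its paralogue the ratios overlapped between groups with all 8 libraries. The log2 ratio of TIMM17A to TIMM17B was 1.47, 1.42, 1.73 and 2.07 with miR-101 and 1.91, 2.00, 1.88 and 2.26 in the control. It was lower in 4 of 4 pairs, but miR-101 replicate 4 lay inside the control range (mean 1.67 with miR-101 and 2.01 in the control, difference -0.34, two-sided exact permutation p = 0.143, adjusted 0.238). Without miR-101 replicate 4 the difference was -0.47 (exact permutation p = 0.0286), without each other library in turn -0.38 to -0.25 (exact p from 0.143 to 0.257), in replicates 1 and 2 alone -0.51 and in replicates 3 and 4 alone -0.16. MTX1 to MTX3 differed by 0.60 (exact p = 0.0571, adjusted 0.114), by 0.35 without control replicate 3 (exact p = 0.143) and by 0.75 without control replicate 1 (exact p = 0.0286). The other 4 pairs, TOMM40 to TOMM40L, TIMM8A to TIMM8B, PMPCA to PMPCB and CHCHD4 to GFER, differed by -0.08 to 0.08 with exact p from 0.4 to 0.886.

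**Figure D3:**
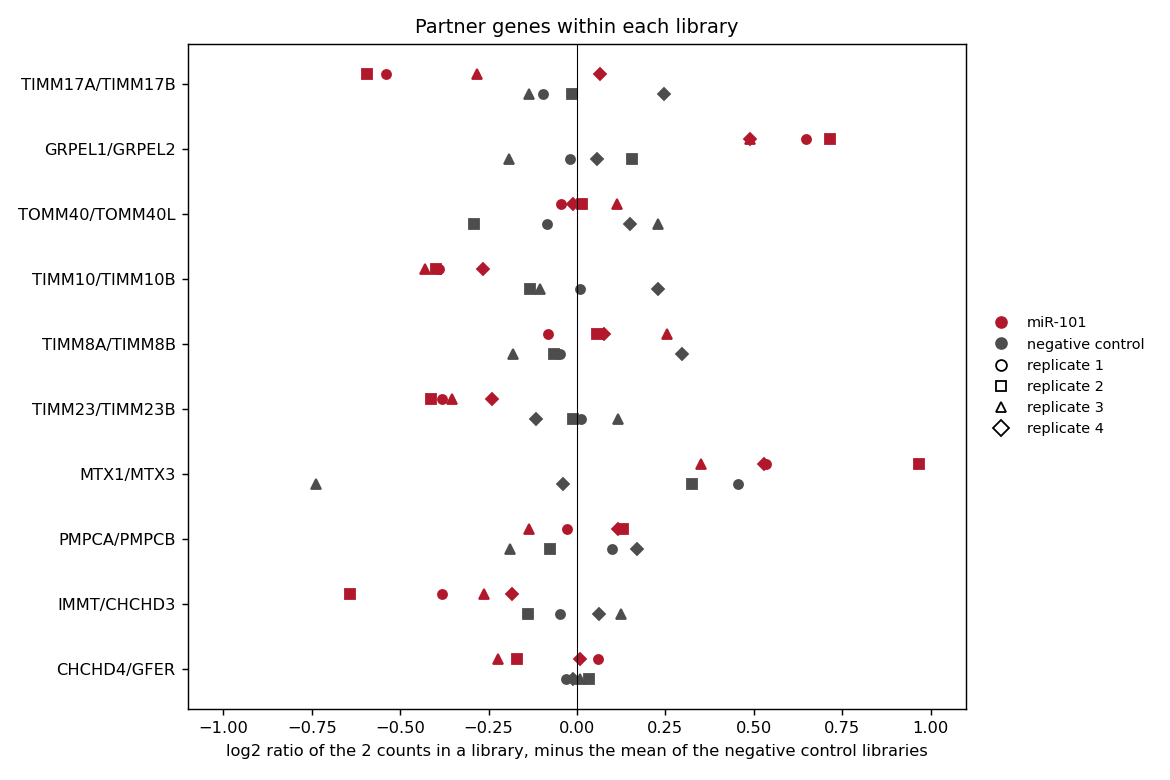
Log2 ratio of the counts of 2 partner genes in each library, shifted so that the mean of the negative control libraries is 0. Within each row miR-101 libraries are drawn above the controls. GRPEL1/GRPEL2 lies wholly to the right of its controls, and TIMM10/TIMM10B, TIMM23/TIMM23B and IMMT/CHCHD3 wholly to the left.

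The printed seed matches can be set beside the fold changes. In the longest 3′ UTR, 9 of 33 members (27.3%) had a match, against 24.1% of the 12477 genes with an annotated 3′ UTR. Of the 4 members with an 8mer, TIMM17A fell, and MTX3, CHCHD4 and TOMM5 had log2 fold changes of -0.27, -0.18 and 0.07 without a call. All tested genes with an 8mer (n = 573) had a median of -0.25, with 73.3% below zero and 21.8% called lower. Both members with a 7mer-m8, GRPEL2 and TOMM22, had negative values (-0.41 and -0.02), beside a median of -0.09 over all 1047 such genes. The 3 members whose strongest match was a 7mer-A1, TIMM8A, TIMM9 and GRPEL1, had values from 0.11 to 0.20, beside a median of 0.00 over 1378 genes. GRPEL1 holds 2 such matches in its 3′ UTR and GRPEL2 holds the 7mer-m8 shown above, so the 2 exchange factors carry different classes of match. Of the 24 members with none of these matches in the longest 3′ UTR, IMMT fell and TIMM10B rose. The 3 among them with a match in another annotated 3′ UTR had values of -0.47 (IMMT), 0.27 (TIMM21) and -0.06 (PMPCB). A match is a string of letters and not a proven site.

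**Figure D4:**
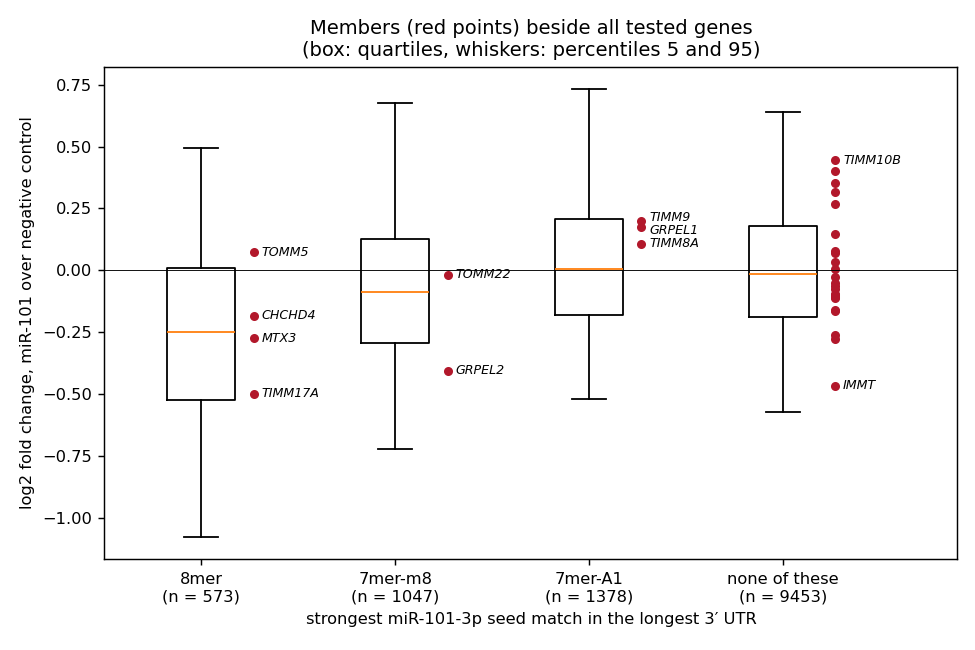
Log2 fold change, miR-101 over negative control, of the 33 members (points) beside all tested genes with an annotated 3′ UTR (boxes: quartiles, whiskers: percentiles 5 and 95), by the strongest seed match in the longest 3′ UTR. TIMM17A is the lowest of 4 members with an 8mer, and IMMT the lowest of the 24 with none of the 3 classes there. A shorter annotated 3′ UTR of IMMT holds a 7mer-m8.

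Levels differed far more between members than between groups. Per kilobase of annotated exons, control means ran from 1.24 CPM per kb (MTX1) and 2.31 (TOMM5) to 62.6 (TOMM20), 76.6 (TOMM70) and 119.9 CPM per kb (TOMM7). Receptors and small subunits of the gate therefore took the 3 highest places, and TOMM70 was above TOMM20 in each of the 4 controls. TOMM20 (51.3 to 78.5 CPM per kb over the controls) and the next gene, TIMM23 (55.3 to 68.5), overlapped. TIMM17A stood at 28.8 CPM per kb with miR-101 and 40.7 in the control, above TIMM17B at 12.4 with miR-101 and 13.9 in the control. IMMT stood at 13.1 CPM per kb with miR-101 and 18.1 in the control, below CHCHD3 at 50.3 with miR-101 and 54.1 in the control. Summed over all 33 members, CPM came to 2482 ± 189 with miR-101 and to 2476 ± 135 in control libraries (SD, n = 4), a difference smaller than the spread. The 6 TIM23 genes summed to 267.7, 272, 249 and 302 CPM with miR-101 and to 323, 326, 313 and 359.9 CPM in the control, without overlap, a sum in which TIMM17A weighs most. The sums of the 2 cristae genes, IMMT among them, did not overlap either (219 to 230 CPM with miR-101, 232.5 to 280 CPM in the control). Those of the other roles overlapped.

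Replicates 1 and 2 were more alike than other libraries of their group, with an SD over genes of the log2 difference of 0.256 (miR-101) and 0.28 (control), against 0.356 to 0.62 for other pairs of a group. Their counts differed by more than counting noise (chi-square per degree of freedom of 3.79 and 4.65), which does not show that they are separate cultures, since library preparation also adds spread. The fold change had the same sign in replicates 1 and 2 alone as in replicates 3 and 4 alone for 27 of 33 members. In replicates 1 and 2 alone 9 members were called, beside 32.4% of all genes. In replicates 3 and 4 alone none was called or had an unadjusted p under 0.05 by edgeR. Of the 15833 genes in that fit 0.0379% were called, and 693 higher and 565 lower had an unadjusted p under 0.05. MiR-101 replicate 4 was the highest of its group for 23 of 33 members and control replicate 4 for 18, against 32.8% and 34.3% of all genes. The members' median log2 fold change of -0.05 was -0.11 without miR-101 replicate 4 (23 of 33 negative) and 0.02 without control replicate 4 (13 of 33 negative). The sign turned in at least 1 fit without 1 library for 13 of 33 members.

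**Figure D5:**
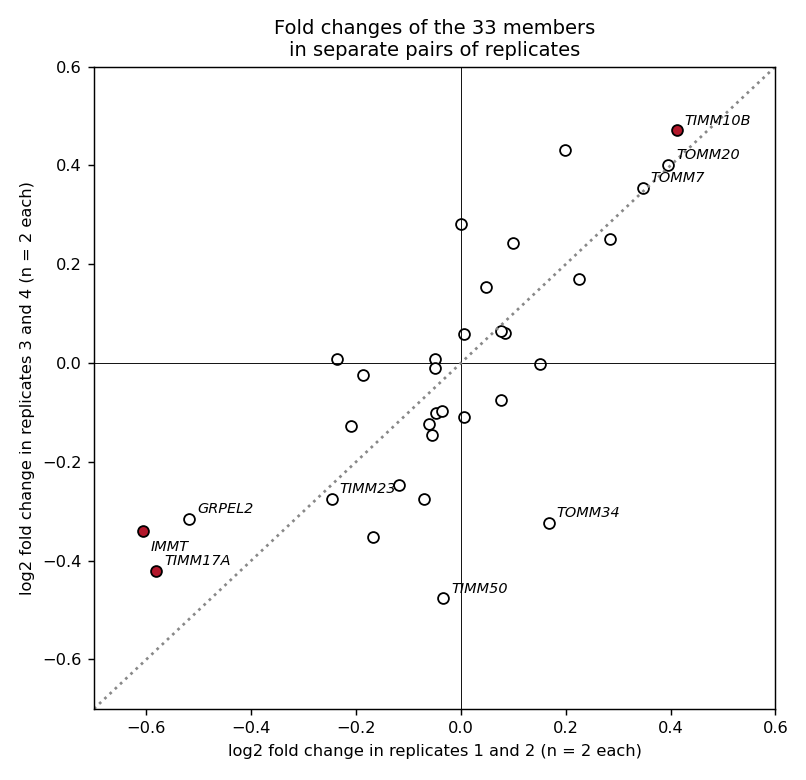
Log2 fold change, miR-101 over negative control, of each member fitted in replicates 1 and 2 alone (x) and in replicates 3 and 4 alone (y), with n = 2 per group in each fit and the line of equality dotted. The 3 called members (filled) keep their direction, while TIMM50 and TOMM34 lie far below the line.

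Other genes of import, folding and quality control were taken from a list of 51, of which 48 were tested and 2 were called, 1 higher and 1 lower, near the 6.62% of all genes. PINK1, the kinase that builds up on the TOM gate when import fails, stood at 34.5, 39.6, 31.4 and 40.8 CPM with miR-101 and at 56.2, 55.2, 47.4 and 91.0 CPM in the control. All miR-101 libraries were below all controls (-0.77 ± 0.191, edgeR adjusted p = 0.0368). Control replicate 4 was far above the rest, and the log2 fold change of PINK1 was -0.53 without it. PINK1-AS overlaps PINK1 on the other strand, with a mean CPM of 2.29 with miR-101 and 2.21 in control libraries, so the value is uncertain. MARCH5, a ubiquitin ligase of the outer membrane, stood at 59.5, 58.2, 61.5 and 73.3 CPM with miR-101 and at 45.3, 44.0, 49.9 and 45.3 CPM in the control, without overlap (0.45 ± 0.105, edgeR adjusted p = 0.0284). Of the 8 fits that left out 1 library, both calls held in 2, those lacking control replicate 3 or 4.

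With these 2, 6 of the 48 (12.5%) had an unadjusted p under 0.05, against 22.3% of all genes. PARL, the rhomboid protease that cuts imported PINK1, had a log2 fold change of -0.34 ± 0.127, PITRM1, which degrades cut leaders, -0.49 ± 0.186, MTCH2, an outer membrane insertase, -0.25 ± 0.0985, and COX18, an inner membrane insertase, 0.41 ± 0.15 (edgeR adjusted p from 0.141 to 0.16). PITRM1 stood at 22.5, 24.0, 29.8 and 27.5 CPM with miR-101 and at 29.7, 31.6, 32.0 and 52.5 CPM in the control, and its log2 fold change was -0.26 without control replicate 4, the high library. The exons of PITRM1 share 1379 bases with an antisense gene. Those of PARL share 1071 bases with a gene model on its own strand, so both values are uncertain. Other genes of this list, YME1L1 among them, also share exon bases with another gene. HSPA9, the motor chaperone served by GRPEL1 and GRPEL2, stood at 701, 710.5, 536 and 649 CPM with miR-101 and at 654, 648, 558 and 688 CPM in the control (0.03 ± 0.118). YME1L1, the protease known to degrade TIMM17A protein, had a log2 fold change of 0.03 ± 0.111. The 9 tested cristae partners, among them the MICOS subunits APOO and APOOL and the fusion protein OPA1, had log2 fold changes from -0.19 to 0.30, of which 7 were negative and none had an unadjusted p under 0.05. No call was made among them by edgeR, DESeq2 or limma-voom.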

How the data were processed

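Libraries of total RNA depleted of ribosomal RNA came from 4 miR-101 and 4 negative control cultures. The authors deposited 1 table of raw read counts per gene symbol for the 8 libraries. The submitters' processing notes name the hg38 build, StringTie 1.2.4, TopHat2 2.0.14 and bcl2fastq 2.18.0.12. Counting program, annotation and strand setting: not given in the sources used here. Counts were filtered with filterByExpr (15905 of 15982 genes kept), scaled by TMM and tested with edgeR 4.0.16 (quasi-likelihood, group only, Benjamini-Hochberg adjustment over all tested genes, R 4.3.3), with DESeq2 1.42.0 and limma 3.58.1 (voom) as alternatives. The code was tested on simulated data. P-values measure the spread between these libraries of 1 cell line. The counts do not show that replicates 1 and 2 of a group are separate cultures.

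The labels number 4 independent transfections in each group, and a second model took that number as a block. Deviations from the group means correlated over genes at 0.328, 0.426, 0.185 and 0.209 between same-numbered libraries 1 to 4, each over 0.1, and at -0.45 to 0.39 between libraries of different number. Among libraries of different number 3 values lay within the range of the same-numbered ones (miR-101 1 with control 2 at 0.372, miR-101 2 with control 1 at 0.374, miR-101 4 with control 3 at 0.391), so the likeness was not particular to a shared number. Other alternatives were other scalings and filters, leaving out each library, and replicates 1 and 2 summed, alone, or left out. Members and lists were chosen with earlier results of these data known. Values per library are given for members called, with an unadjusted p under 0.05, partnered with these, holding a seed match, or with the smallest p in their role. Pseudogene rows were left out of the members. Seed matches were searched on the transcript strand in GENCODE 29 3′ UTRs on GRCh38. Of the symbols, 14077 matched by name, 315 by an older symbol, and 1590 did not. Exon lengths come from the same annotation.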

Additional observations from a re-analysis of the deposited data

Results flagged for a closer look

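In 6 of 86 groups of 4 libraries, covering each member's CPM and each partner ratio, 1 library lay far from the other 3 by Dixon's criterion, which chance meets in about 1 in 20 groups. With miR-101, replicate 4 was the high library for TOMM70 (431 CPM, the other miR-101 libraries at 376 to 382), TIMM8A (39.2 CPM, others 26.3 to 26.5) and GRPEL1 (72.8 CPM, others 58.2 to 59.8). In the control, replicate 4 was high for TOMM40 (177 CPM, others 114 to 119.7), replicate 3 was high for TIMM9 (31.3 CPM, others 21.5 to 22.9), and replicate 3 was low for TIMM17A (135 CPM, others 145 to 147). Even that lowest control for TIMM17A stood above all 4 miR-101 libraries.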

How the results depend on the processing

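The counts of called genes depended on which libraries entered. Against 3 members (1 higher, 2 lower), 2 pathway genes and 1053 genes in all, the replicate block gave 5 members (2 higher) and 1676 genes, and DESeq2 gave the same number of members and 1714 genes. Leaving out 1 library gave 0 to 4 members (0 to 2 higher, 0 to 3 lower), 0 to 3 pathway genes and 488 to 1419 genes. No member was called without miR-101 replicate 2 or without control replicate 2, with 7 and 6 members at an unadjusted p under 0.05. Without miR-101 replicate 2, 1440 genes higher and 1338 lower of 15930 had such a p. Without control replicate 2 it was 1465 higher and 1457 lower of 15962. With replicates 1 and 2 summed into 1 sample per group, 0 members (6 at an unadjusted p under 0.05), 0 pathway genes and 173 genes were called. In that fit 1157 genes higher and 1085 lower of 15928 had an unadjusted p under 0.05. Replicates 1 and 2 alone gave 9 members (4 higher, 5 lower), 10 pathway genes and 5126 genes, and replicates 3 and 4 alone gave 0 members, 0 pathway genes and 6 genes. The members' median was -0.11 to 0.017 without 1 library. With 6-base matches added, 16 of 33 members held a seed match instead of 9, against 43.3% of all genes with an annotated 3′ UTR. The sign reversed for 13 of 33 members in at least 1 fit without 1 library. For TOMM22 it was 0.0069 with upper-quartile scaling, 0.0078 in replicates 3 and 4, and -0.14 to 0.061 without 1 library. Without 1 library TOMM5 ranged from -0.17 to 0.16, TOMM34 from -0.21 to 0.15, TIMM8A from -0.063 to 0.17, TIMM10 from -0.015 to 0.13, TIMM23B from -0.0056 to 0.18, the ratio TOMM40 to TOMM40L from -0.080 to 0.094 and PMPCA to PMPCB from -0.044 to 0.077. The remaining members and the other pathway genes named were followed after the data had been seen. Without 1 library TOMM40 ranged from -0.18 to 0.084, SAMM50 from -0.037 to 0.037, TIMM8B from -0.13 to 0.13, GFER from -0.17 to 0.016, TIMM50 from -0.41 to 0.050, TIMM44 from -0.092 to 0.057, PMPCA from -0.12 to 0.030, HSPA9 from -0.036 to 0.10 and YME1L1 from -0.032 to 0.080. With replicates 1 and 2 summed SAMM50 was -0.020 and HSPA9 -0.0057. In replicates 1 and 2 PMPCA was 0.0052. In replicates 3 and 4 TOMM40L was 0.0079, SAMM50 -0.074, HSPA9 -0.072 and YME1L1 -0.026. TOMM34 was 0.17 in replicates 1 and 2, TIMM23B -0.0019 in replicates 3 and 4, and the ratio TOMM40 to TOMM40L -0.14 there. Sign flips of the 4 pairs cannot pass the threshold for any ratio. The causes were not tested. Of 779 values of named genes under these alternatives, 688 kept their direction and side of the threshold. Most named genes were not called to begin with, so for them this meant staying uncalled. A call was lost in 34 values, all of them of called members or called pathway genes. The sign turned in 42 values and a call was gained in 15.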
